A study of Homo sapiens with 6 samples.

Results

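Tight junctions seal the space between neighbouring epithelial cells near their apical border. Claudins are the membrane proteins that build the junction strands and set which ions pass between cells. Occludin and tricellulin are further strand proteins with a MARVEL domain, junctional adhesion molecules are immunoglobulin-type adhesion proteins beside the strands, and scaffolds such as ZO-1 and cingulin tie the strands to actin. In epithelia, which claudins are expressed and at what level varies with the tissue and with the state of differentiation.

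The mRNAs of 9 such genes were examined after PAX9 depletion: the claudins CLDN1, CLDN4, CLDN7 and CLDN12, occludin (OCLN), tricellulin (MARVELD2), ZO-1 (TJP1), cingulin (CGN) and JAM-A (F11R). Each gene was found by its exact symbol at 1 locus of the table, and the 9 were taken from 26822 distinct symbols. MCF10A, an established and non-tumorigenic line of human breast epithelial cells, was transfected for 72 hours with 30 nM of a non-targeting siRNA (siNT) or of siRNAs against PAX9 (siPAX9), with 3 samples in each of the 2 groups. PAX9 is a paired box transcription factor of RNA polymerase II, and the comparison asks which mRNAs depend on it.

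The authors combined the 3 samples of a group into 1 FPKM per locus, a fragment count divided by transcript length and sequencing depth. FPKM is per length, so levels of different genes can be compared within a group. The table gives no value per sample and no read count, so no error between replicates, no test and no interval could be computed from it. Changes are given as the log2 ratio of the siPAX9 FPKM to the siNT FPKM. A gene was counted as past the threshold at a ratio of at least 2-fold where the larger of its 2 FPKM was at least 1. Of all 13492 symbols that had such an FPKM and a finite ratio, 980 (7.26%) were at least 2-fold higher in siPAX9, 930 (6.89%) were at least 2-fold lower, and the median log2 ratio was -0.07. The FPKM of the 2 groups summed to different totals, and rescaling both to one total adds 0.19 to every log2 ratio. Nothing in the labels says whether the samples came from separate cultures. In bulk RNA, a smaller number of cells of one type and less RNA per cell cannot be told apart.

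PAX9 itself was at an FPKM of 2.80 in siNT against 0.325 in siPAX9, a log2 ratio of -3.10, at a locus interval also listed for SLC25A21, SLC25A21-AS1 and MIR4503. All 10 markers of basal and mammary epithelium were at an FPKM of at least 1 in both groups, between 31.4 and 1718 in siNT and between 25.3 and 2088 in siPAX9. The 8 luminal markers summed to 271 in siNT and 188 in siPAX9. Of these, 4 reached an FPKM of 1, and ESR1, PGR, ELF5 and KRT19 did not. The 4 were KRT18 at 212 in siNT and 119 in siPAX9, KRT8 at 51.7 and 58.7, GATA3 at 6.19 and 7.56, and FOXA1 at 1.10 and 2.86. The 5 endothelial markers summed to 3.41 in siNT and 2.46 in siPAX9, with CDH5 listed at 0 in siNT, PECAM1 at 2.58 and 0.495 and KDR at 0.798 and 1.94. Among the 5 blood cell markers, CD3E and HBB were listed at 0 in both groups, and the sum, nearly all CD14, was 14.5 in siNT and 56.6 in siPAX9. The 6 fibroblast and mesenchymal markers moved in both directions and summed to 307 in siNT and 95.7 in siPAX9, with COL3A1 listed at 0 in both. Within that list VIM, which encodes the intermediate filament protein vimentin, was at 301 and 53.5, DCN at 5.85 and 37.9, and COL1A1 at 0.454 and 4.13. Their part in the values below was not tested.

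Of the 9 tight junction genes, 8 had a higher FPKM in siPAX9 than in siNT, and only F11R had a lower one. Among all symbols that passed the filter, 45.1% had a higher value in siPAX9. CLDN4, CGN and OCLN were at least 2-fold higher, the other 6 were within 2-fold, and 0 were at least 2-fold lower. That is 3 of 9 genes (33.3%) past 2-fold higher and 0 past 2-fold lower, beside 7.26% and 6.89% of all symbols. The 9 genes, and the gene lists below, were chosen with earlier results of these data known. Their shares and medians therefore do not measure an excess over all symbols. The median log2 ratio of the 9 genes was 0.75, beside -0.07 for all symbols. With an FPKM of at least 1 required in both groups, OCLN alone of the 9 was past 2-fold higher, beside 4.40% of symbols, and the median of the 7 genes left was 0.39, beside -0.08. All 9 passed the filter on low values, but CLDN4 and CGN reached it only in siPAX9, so that they could enter the count only as higher. The direction of each of the 9 was the same with 0.1 or 1 added to each FPKM, after centring on the median of all symbols and after rescaling both groups to one total.

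**Figure D1:**
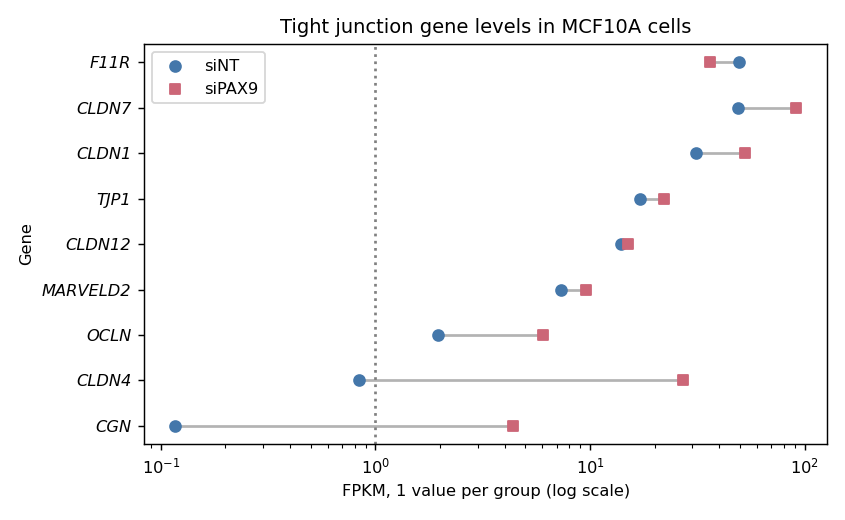
FPKM of the 9 tight junction genes (x axis, log scale, 1 value per group and no error) in siNT (circles) and siPAX9 (squares), with genes ordered by their siNT level and a dotted line at an FPKM of 1. The lines for CLDN4 and CGN are the longest and cross an FPKM of 1, and F11R is the gene whose siPAX9 value lies to the left of its siNT value.

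The 3 genes past 2-fold, and CLDN7 for its run of E-boxes, are set beside the upstream sequence of their transcription starts. RefSeq's table of promoters (GRCh38.p14) held 13 starts for 8 of the 9 genes, and the 250 bases before each start were found at 1 position each on GRCh37, the assembly with the coordinates of UCSC hg19. Searched on both strands were the E-box CAGGTG, to which SNAI-type factors can bind, the grainyhead-type sequence AACNNGTT, the GC box GGGCGG and the TATA box TATAAA. Capitals mark the matches. The cingulin run is the part of its window outside annotated exons, and for CLDN4, OCLN and CLDN7, whose windows reach into exons of some annotated transcript, only the 30 bases around a match are shown.
CGN, chr1:151483613-151483861, plus strand: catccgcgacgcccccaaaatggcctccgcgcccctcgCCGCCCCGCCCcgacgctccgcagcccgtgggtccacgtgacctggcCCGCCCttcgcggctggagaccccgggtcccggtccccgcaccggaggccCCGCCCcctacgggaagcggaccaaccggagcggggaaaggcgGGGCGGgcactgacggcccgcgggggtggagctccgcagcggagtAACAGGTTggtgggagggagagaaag
CLDN4, chr7:73245267-73245296, plus strand: ctccctctgcccCCGCCCctctgccagagc
OCLN, first start, chr5:68788329-68788358, plus strand: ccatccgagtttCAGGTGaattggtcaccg
OCLN, second start, chr5:68788472-68788501, plus strand: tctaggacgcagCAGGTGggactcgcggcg
CLDN7, second start, chr17:7165798-7165827, minus strand: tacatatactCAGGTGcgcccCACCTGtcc

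The CGN window held 5 GC boxes, 2 of which overlap by a base, and a grainyhead-type sequence 27 bases before the start. The CLDN4 window held 1 GC box, 47 bases before the start, and none of the other sequences. Both OCLN windows held an E-box, and the window of the second CLDN7 start held 4, of which the 2 nearest the start are shown. Over the 13 starts, the E-box was found in 4, the GC box in 9 and the grainyhead-type sequence in 1. TJP1, OCLN and CLDN7 each had more than 1 start, so the 13 starts are not separate genes. All but the window of CLDN12 (54.4%) and 1 window of TJP1 (34.8%) exceeded the median share of G and C bases in all windows (58%). The part of this in the GC box count was not tested. Of all 35116 promoter windows in the table, 17.5% held the E-box, 42.6% the GC box and 3.00% the grainyhead-type sequence. The TATA box was found in 0 of the 13 and in 10.7% of all windows. A match describes letters only, and the absence of one says nothing of binding elsewhere.

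CLDN4, a claudin of many simple and stratified epithelia, showed the largest gain of the claudins on the log2 scale. Its FPKM was 0.842 in siNT and 27.1 in siPAX9, a ratio of 32.2-fold and a log2 ratio of 5.01, the 63rd highest of the 13492 symbols. In siNT it lay below every other of the 9 genes but CGN, and in siPAX9 it lay above TJP1 and CLDN12. With 1 added to each FPKM its log2 ratio was 3.93. The locus (chr7:73245193-73247023 on hg19) holds no other protein-coding gene, and the canonical transcript of CLDN4 in the annotation has 1 exon.

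CLDN7, which binds the adhesion molecule EPCAM, had the largest gain of the 9 genes in FPKM itself. It was at 48.7 in siNT and 91.5 in siPAX9, a ratio of 1.88-fold and a log2 ratio of 0.91. It was level with F11R in siNT, at 0.982 times its FPKM, and stood at 2.52 times F11R in siPAX9. The locus interval of CLDN7 (chr17:7146906-7166557) is also listed for CTDNEP1, a neighbour on the same strand, and ELP5, on the opposite strand. CTDNEP1 and ELP5 have rows of their own, but how reads in overlapping exons were assigned is not stated, so the value of CLDN7 carries that uncertainty. After rescaling both groups to one total, the log2 ratio of CLDN7 was 1.10, past 2-fold.

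CLDN1, the claudin that the epidermal barrier requires, was at 31.2 in siNT and 52.5 in siPAX9, a log2 ratio of 0.75. Its locus is chr3:190023490-190040235. CLDN12, a claudin that differs from most in its C-terminal tail, was at 13.9 in siNT and 15.0 in siPAX9. Its log2 ratio of 0.11 was the smallest in size among the 9 genes. CLDN12 lies at chr7:90032648-90045268, on the same chromosome as CLDN4.

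Within the family, the 4 genes above accounted for 92.2% of the FPKM summed over 24 claudin genes in siNT and for 94.8% in siPAX9. The sum was 103 in siNT and 196 in siPAX9, a ratio of 1.91-fold. CLDN7 took 47.5% of the sum in siNT and 46.6% in siPAX9, and CLDN1 took 30.4% and 26.8%. CLDN4 went from 0.820% of the sum to 13.8%, while CLDN12 went from 13.6% to 7.64%. The order of the 4 in siNT was thus CLDN7, CLDN1, CLDN12 and CLDN4, and in siPAX9 CLDN4 stood above CLDN12. Whether neighbours in either order differ beyond the spread between samples cannot be told from 1 value per group.

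**Figure D2:**
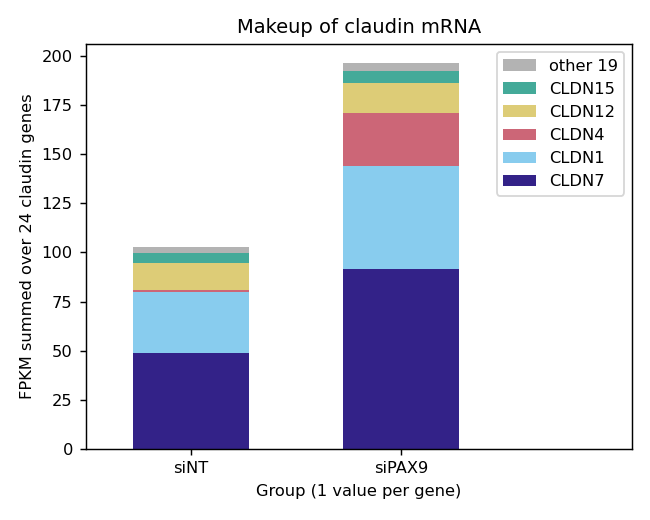
FPKM summed over 24 claudin genes (y axis) in siNT and siPAX9, 1 value per gene and group with no error, stacked by gene. The stack is 103 high in siNT and 196 in siPAX9, and the CLDN4 layer is 0.842 in siNT and 27.1 in siPAX9.

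Of the other 20 claudins, 18 stayed under an FPKM of 1 in both groups. CLDN15, a cation-channel claudin, was at 5.09 in siNT and 6.14 in siPAX9, a log2 ratio of 0.27. CLDN23 was at 0.318 and 1.57, a log2 ratio of 2.30, or 0.96 with 1 added, and reached an FPKM of 1 only in siPAX9. Classic claudins of other epithelia stayed low, with CLDN3 at 0.0179 and 0.0674 and CLDN2 at 0.0781 and 0.0613. CLDN5, the claudin of blood vessels, was at 0.0234 in siNT and listed at 0 in siPAX9.

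OCLN, the integral tight junction protein found before the claudins, was at 1.96 in siNT and 6.06 in siPAX9. The ratio was 3.09-fold and the log2 ratio 1.63, the 500th highest of all symbols. OCLN has an unprocessed pseudogene, OCLNP1, elsewhere on chromosome 5, and reads of the shared exons could have been split between the copies, so its value is uncertain to that extent. Its relative MARVELD2, which seals the corners where 3 cells meet, was at 7.29 in siNT and 9.54 in siPAX9, a log2 ratio of 0.39. OCLN stood at 0.269 times MARVELD2 in siNT and at 0.635 times in siPAX9. Both genes lie on the long arm of chromosome 5, OCLN at chr5:68788119-68853931 and MARVELD2 at chr5:68710939-68740134.

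The other genes of the MARVEL and tricellular list showed no difference past 2-fold among those that passed the filter. LSR, the angulin that brings tricellulin to the corners, had the highest siNT level of the list, at 39.0 in siNT and 52.4 in siPAX9. MARVELD3 was at 6.64 and 4.55, a log2 ratio of -0.55, and ILDR1 and ILDR2 stayed under an FPKM of 1.

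F11R, the adhesion molecule JAM-A, was the highest of the 9 genes in siNT and the only one that was lower in siPAX9. Its FPKM was 49.6 in siNT and 36.3 in siPAX9, a log2 ratio of -0.45, within 2-fold. Its locus is chr1:160961351-160991133, where the annotation also holds a readthrough gene on the same strand, so reads cannot be assigned to F11R alone. In the list of junctional adhesion molecules and relatives, 4 of 5 genes with an FPKM of at least 1 had a lower value in siPAX9, and the median log2 ratio was -0.25. Of all symbols, 45.1% had a higher value in siPAX9, so a lower value was the more common one, and 6.89% were past 2-fold lower. CXADR, the coxsackievirus and adenovirus receptor, was the gene of that list past 2-fold, at 40.0 in siNT and 15.4 in siPAX9, a log2 ratio of -1.38.

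CGN, the cytoplasmic protein that links ZO proteins to actomyosin, had the largest log2 ratio of the 9 genes and the lowest level in both groups. Its FPKM was 0.116 in siNT and 4.36 in siPAX9, a ratio of 37.5-fold and a log2 ratio of 5.23, the 53rd highest of all symbols. Because the siNT value is close to 0, the ratio depends strongly on the scale, and with 1 added to each FPKM the log2 ratio was 2.26. CGN lies at chr1:151483862-151511167. Its paralog CGNL1 did not follow it, at 0.114 in siNT and 0.0676 in siPAX9, under an FPKM of 1 in both groups.

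TJP1, which encodes ZO-1, the scaffold that binds claudins, occludin and JAM-A, was at 17.1 in siNT and 22.0 in siPAX9, a log2 ratio of 0.36. Its locus is chr15:29991571-30261002. CGN stood at 0.00682 times TJP1 in siNT and at 0.198 times in siPAX9. Its relative TJP3 (ZO-3), which is found mainly in epithelia, was at 3.28 and 8.53, a log2 ratio of 1.38 and past 2-fold.

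In the whole list of scaffolds and plaque proteins, 22 of 25 genes reached an FPKM of 1, and 3 of these were past 2-fold higher (CGN, TJP3 and AMOTL2) and 0 past 2-fold lower, beside 7.26% and 6.89% of all symbols. CGN passed the filter only through siPAX9, and the intervals of TJP3 and AMOTL2 are also listed for other named rows, so their values carry the same uncertainty as that of CLDN7. AMOTL2, an angiomotin-like protein of the plaque, was at 8.14 in siNT and 18.2 in siPAX9, a log2 ratio of 1.16. YBX3, a Y-box protein that binds ZO-1, had the highest siNT level of the list, at 354 in siNT and 297 in siPAX9. The median log2 ratio of the 22 was 0.06.

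Apical polarity complexes position the junction along the lateral membrane. Of their 17 genes with an FPKM of at least 1, 14 had a higher value in siPAX9 as deposited, 1 (5.88%) was past 2-fold higher and 0 were past 2-fold lower, with a median log2 ratio of 0.24. Of all symbols, 45.1% had a higher value in siPAX9, and 7.26% were past 2-fold higher. The gene past 2-fold was LIN7B, at 0.864 in siNT and 2.32 in siPAX9, a log2 ratio of 1.42, or 0.83 with 1 added, and it passed the filter only through siPAX9, at an interval shared with another named row. SCRIB, at a locus with 2 symbols, had the highest siNT level, at 79.3 in siNT and 76.5 in siPAX9. That direction turns after centring on the median of all symbols and after rescaling both groups to one total.

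Among partners, proteases and kinases that act on claudins, 2 of 12 genes (16.7%) were past 2-fold higher and 1 (8.33%) past 2-fold lower, beside 7.26% and 6.89% of all symbols. The intervals of MYLK and EPCAM are also listed for other named rows, and MYLK passed the filter only through siPAX9. MYLK, the myosin light chain kinase that opens tight junctions, was at 0.412 in siNT and 1.70 in siPAX9, a log2 ratio of 2.04, or 0.93 with 1 added. EPCAM, the partner of CLDN7, was at 34.3 and 16.7, a log2 ratio of -1.04. That ratio fell within 2-fold after centring (-0.96), after rescaling (-0.84) and, narrowly, with 1 added to each FPKM. CLDN7 stood at 1.42 times EPCAM in siNT and at 5.47 times in siPAX9. SPINT2, an inhibitor of membrane serine proteases, had the highest siNT level of the list, at 180 in siNT and 173 in siPAX9. That direction also turns after centring and after rescaling.

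Over the 6 tight junction lists together, 66 of 99 genes reached an FPKM of 1 with a finite ratio. Of these, 9 (13.6%) were past 2-fold higher and 2 (3.03%) past 2-fold lower, beside 7.26% and 6.89% of all symbols. The median log2 ratio was 0.23. Without the 9 genes, 6 of 57 (10.5%) were past 2-fold higher and 2 (3.51%) lower, with a median of 0.18. The share past 2-fold higher was thus closer to the 7.26% of all symbols once the 9 genes were left out. The lists, like the 9 genes, were chosen with earlier results of these data known, so these shares do not measure an excess. With an FPKM of at least 1 required in both groups, 4 of the 60 tight junction genes left were past 2-fold higher, beside 4.40% of symbols. That filter removed CLDN4, CGN, CLDN23, LIN7B and MYLK from the count. With 1 added to each FPKM, 6 of the 66 were past 2-fold higher, without CLDN23, LIN7B and MYLK, beside 5.00% of symbols.

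**Figure D3:**
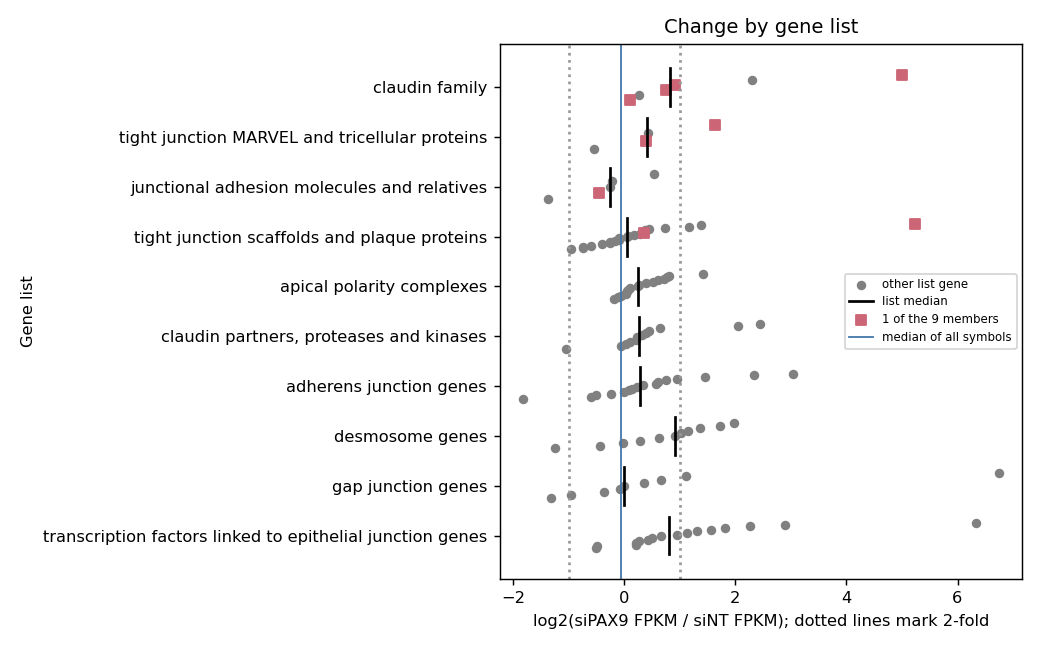
Log2 ratio of siPAX9 FPKM to siNT FPKM (x axis) for every list gene that passed the filter, by gene list (y axis), 1 point per gene with no error. Squares are the 9 tight junction genes, black lines the list medians, the blue line the median of all symbols (-0.07) and dotted lines 2-fold; CLDN4 (5.01) and CGN (5.23) stand apart from the other genes of their lists.

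The other junctions of the lateral membrane were compared as lists. Of 16 adherens junction genes with an FPKM of at least 1, 3 were past 2-fold higher and 1 past 2-fold lower, with a median log2 ratio of 0.29. CDH1 (E-cadherin), the cadherin of epithelia, was at 45.3 in siNT and 124 in siPAX9, and CDH2 (N-cadherin) was at 5.06 and 1.44. NECTIN4 was at 1.29 and 10.6, and PLEKHA7, an adherens junction protein that binds p120 catenin, at 1.90 and 9.61. CTNNA1 (alpha-catenin) had the highest siNT level of that list, at 147 and 162. Of 11 desmosome genes, 5 were past 2-fold higher and 1 past 2-fold lower, with a median log2 ratio of 0.91. Among the 5, CDSN passed the filter only through siPAX9, so it could enter only as higher. Over all symbols, 7.26% were past 2-fold higher and 6.89% lower. The intervals of CDH1 and DSC2 are also listed for other named rows. DSC2 (desmocollin-2) showed the largest ratio of the 11 desmosome genes, at 11.3 in siNT and 44.8 in siPAX9. Whether the lists differ from each other was not tested.

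**Figure D4:**
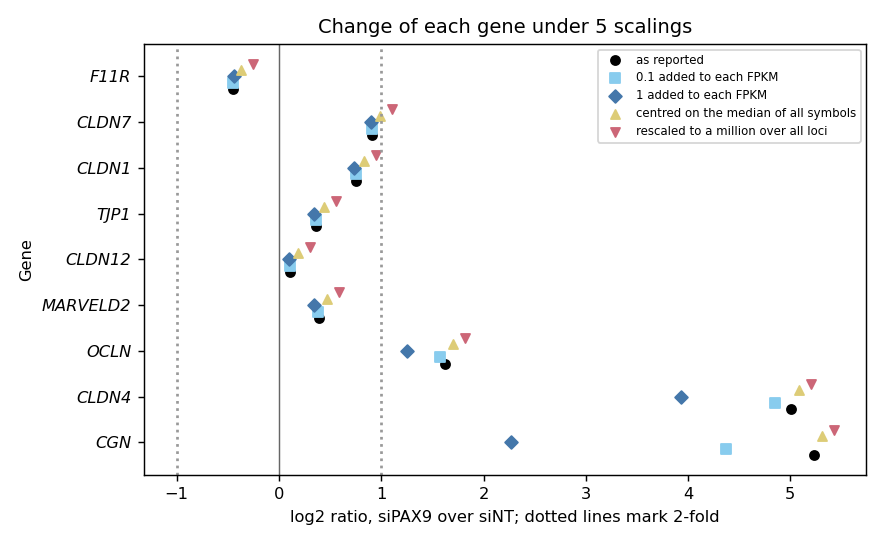
Log2 ratio of siPAX9 to siNT (x axis) of the 9 tight junction genes under 5 scalings of the FPKM, 1 marker per scaling and no error. Adding 1 to each FPKM moves CGN from 5.23 to 2.26 and CLDN4 from 5.01 to 3.93, CLDN7 passes 2-fold (dotted line) after rescaling to one total, at 1.10, and F11R stays below 0 under each of the 5.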

How the data were processed

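The samples were poly(A)+ RNA-seq libraries of MCF10A, 3 for each of 2 siRNA groups, read from one end. Bowtie2 and Cufflinks, run by the authors within Partek Flow, gave alignments to hg19 and transcript levels. The deposited values are FPKM, 1 per locus and group; how the libraries were scaled against each other is not given in the sources used here. The authors' columns of fold change, test statistic, p-value, q-value, status and significance were not used. The 41656 loci were reduced to 26822 symbols, each taken at its locus of highest mean FPKM, and log2 ratios were computed without a pseudocount. Symbols were kept if the larger FPKM was at least 1, and 130 of these were listed at 0 in one group and had no ratio. With 1 value per group no test was possible. The 9 genes and the gene lists were chosen with earlier results of these data known. Named were the 9 genes, other list genes past 2-fold (at most the 6 largest per list), the gene with the highest siNT level of each list and PAX9, and some genes that this rule names are not reported here. CLDN2, CLDN3, CLDN5, CLDN15, CGNL1, MARVELD3, ILDR1, ILDR2, the sequence motifs and the marker genes given by name were chosen for mention once their values were known. Ratios were checked on simulated data. Starts of deposited loci, counted from 0, were raised by 1, and exons were read from GENCODE release 44 on GRCh37. The software was pandas 2.3.3 and numpy 2.4.6 under Python 3.11.15, with matplotlib 3.10.9 for plots. Alternatives were other pseudocounts, scalings, fold thresholds, filters and locus choices.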

Additional observations from a re-analysis of the deposited data

How the results depend on the processing

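No paired analysis was possible because the deposited columns hold 1 pooled value per group and carry no replicate number, and for the same reason no replicate could be left out. At a fold threshold of 1.5, 5 of the 9 genes, 17 tight junction genes and 14.3% of all symbols were past it as higher, and 6 tight junction genes and 16.8% of symbols as lower. At a fold threshold of 4, 5 tight junction genes and 2.67% of symbols were past it as higher, and 0 and 1.37% as lower. With an FPKM of at least 1 in both groups, 1 of the 9 genes (OCLN), 4 tight junction genes and 4.40% of symbols were past 2-fold higher, and the median log2 ratio of the 7 of 9 genes left was 0.39, because CLDN4 and CGN were left out. With no filter but an FPKM above 0 in both groups, 20 tight junction genes and 13.7% of symbols were past 2-fold higher and 8 tight junction genes and 8.15% of symbols lower. Rescaling both groups to one total added 0.19 to every log2 ratio, which gave medians of 0.95 for the 9 genes and 0.43 for the tight junction genes and a log2 ratio of 1.13 for the summed claudin FPKM (0.94 as deposited). With 1 added to each FPKM, after centring, or after rescaling, 1 tight junction gene was past 2-fold lower, EPCAM being lost, beside 4.89%, 5.92% and 4.71% of symbols. With 1 added, 6 tight junction genes and 5.00% of symbols were past 2-fold higher. Without loci whose interval is listed for another named row, a choice made after seeing the data, the median of the 9 genes without CLDN7 was 0.57, that of the tight junction genes left was 0.19, and 5 tight junction genes (7.69% of symbols) were past 2-fold higher and 1 (7.00%) lower, with TJP3, AMOTL2, LIN7B, MYLK and EPCAM left out. None of the 9 genes, and none of the junction and transcription factor list genes past 2-fold, changed direction under a setting that gave it a value. PAX9 and the genes named only as cell type markers were not put through these settings. The table gives no counts, so the precision of the lowest values, such as CGN in siNT, cannot be given.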

Other observations

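Transcription factors linked in general knowledge to epithelial junction genes were also measured. Of the 16 with an FPKM of at least 1, 7 were past 2-fold higher in siPAX9 and 0 past 2-fold lower, with a median log2 ratio of 0.80, beside 7.26% of all symbols past 2-fold higher and 6.89% lower. The grainyhead factor GRHL3 was at 2.57 in siNT and 19.0 in siPAX9, and its relative GRHL1 at 3.45 and 12.1. OVOL1, a repressor active in differentiating epithelia, was at 0.0497 and 4.02. OVOL1 and ZEB2 reached an FPKM of 1 only in siPAX9, so they could enter the count only as higher. The ETS factors ELF3 and EHF were at 16.7 and 41.4 and at 23.6 and 70.0. ZEB2, known as a repressor of epithelial genes, was at 0.356 and 1.71, past 2-fold but just short of it with 1 added, and KLF5 had the highest siNT level of the list, at 95.4 and 110. The locus intervals of GRHL3, OVOL1 and ZEB2, and those of PPL and CDSN, are also listed for other named rows. No value here ties any of these factors to a tight junction gene.

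Among 9 gap junction genes with an FPKM of at least 1, 2 (GJA5 and PANX2) were past 2-fold higher and 1 past 2-fold lower, with a median log2 ratio of -0.01, beside 7.26% and 6.89% of all symbols. Both higher genes passed the filter only through siPAX9, so they could enter only as higher. GJA5 (connexin 40) was at 0.0167 in siNT and 1.78 in siPAX9, PANX2 at 0.758 and 1.64 (a log2 ratio of 1.11, or 0.59 with 1 added), and GJA3 at 6.59 and 2.65. In the desmosome list, PPL (periplakin) was at 21.1 and 70.1, PERP at 229 and 505, DSG3 at 67.2 and 136, CDSN (listed at 6 loci, the highest taken) at 0.855 and 2.21 (past 2-fold, but not with 1 added), and PKP2 at 45.6 and 19.2.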
